A study of Mus musculus with 16 samples.

Results

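The genes described here are 37 genes of DNA replication and mitosis, 18 that act from the licensing of origins to S phase and 19 that act from G2 to the end of mitosis, measured in mouse liver. They were taken from a named list, chosen with earlier results of these data known. Of these, 32 were measured among the 18820 genes tested, 16 for replication (Mcm2, Mcm3, Mcm4, Mcm5, Mcm6, Mcm7, Cdc6, Cdt1, Pcna, Rrm1, Rrm2, Tk1, Uhrf1, E2f1, Ccnd1 and Ccne1) and 16 for mitosis (Ccna2, Ccnb2, Cdk1, Cdc20, Mki67, Top2a, Bub1, Bub1b, Aurka, Aurkb, Plk1, Birc5, Pttg1, Kif11, Prc1 and Cenpa). Tyms, Ccne2, Foxm1 and Nusap1 lay on probe sets that carry several gene symbols, and Ccnb1 was not named, so these 5 have no value here. The livers came from male mice aged 14 to 16 weeks, either wild type (WT) C57Bl/6J animals or animals null for vanin-1 (KO), a pantetheinase anchored to the cell membrane. All were housed singly on standard chow, with lights on during the night hours, and were either fed or fasted for 24 h before the livers were taken. Each of the 4 groups (fed WT, fed KO, fasted WT, fasted KO) had 4 whole-transcript arrays. How the null allele was made, and whether the null mice were littermates of the wild type, could not be learned from the labels.

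Most cells of the adult liver rest outside the cell cycle. A cell that enters it first makes D-type and E-type cyclins, which release E2F factors from the retinoblastoma proteins. E2F then switches on the genes that load the MCM helicase onto origins, supply deoxynucleotides and copy the DNA. A later wave, read largely through the cell cycle homology region (CHR) of its promoters, makes the cyclins, kinases and spindle proteins of mitosis.

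Values are log2 RMA intensities, and each array goes by its group and the number in its title. Array medians lay between 5.19 and 5.29. Vnn1, the targeted gene, stood at 3.67 to 4.26 on the 8 knockout arrays. On wild type arrays it stood at 6.71 to 10.34 in fed and 9.93 to 11.47 in fasted livers. Every array thus followed its genotype label. The fed and fasted ranges overlapped, so Vnn1 does not check the fed or fasted label of an array. The mean of 8 hepatocyte markers was 12.89 to 13.08 on all 16 arrays. Across genes, arrays of 1 group correlated at 0.989 to 0.996 and arrays of different groups at 0.981 to 0.996. Fed KO 4 stood apart: its mean over 15 acute phase genes was 12.01, while the rest of its group lay between 10.004 and 10.83, and its mean over 9 neutrophil markers was 4.21 against 3.76 to 3.83. Fasted WT 4 had a mean of 7.82 over 7 pancreas acinar genes, while the other groups ended at 3.82 at most. Calls that were lost without either array, and differences that moved most without fed KO 4, are given both ways. Many of the genes were dim. The mean over all arrays lay under 5.29, the highest array median, for 5 of 16 replication genes and 12 of 16 mitosis genes. Background signal pulls a log2 difference at such levels toward 0, so those differences are given without a fold.

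Replication and mitosis genes were lower in fasted than in fed livers when both genotypes were averaged, a comparison that uses all 16 arrays. With limma and Benjamini-Hochberg adjustment over all genes, 18 of the 32 fell and 1, Pttg1, rose at an adjusted p below 0.05. The falls took in 11 of 16 replication genes and 7 of 16 mitosis genes, against 9.88% of all genes called lower and 8.4% called higher (18.3% either way). The median log2 difference was -0.30 for replication and -0.31 for mitosis genes, against 0.02 over all genes tested. Of the 19 calls, 11 held at that threshold in each alternative setting that tested them and with each array left out in turn: Mcm5, Mcm6, Rrm1, Tk1, E2f1, Ccne1, Ccna2, Ccnb2, Mki67, Top2a and Cenpa. In whole liver RNA, fewer cells in cycle and less of these transcripts per cell cannot be told apart. Nothing in the labels states outright that the arrays of a group are separate animals, so a p-value here reflects the spread among arrays, which may be technical.

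**Figure D1:**
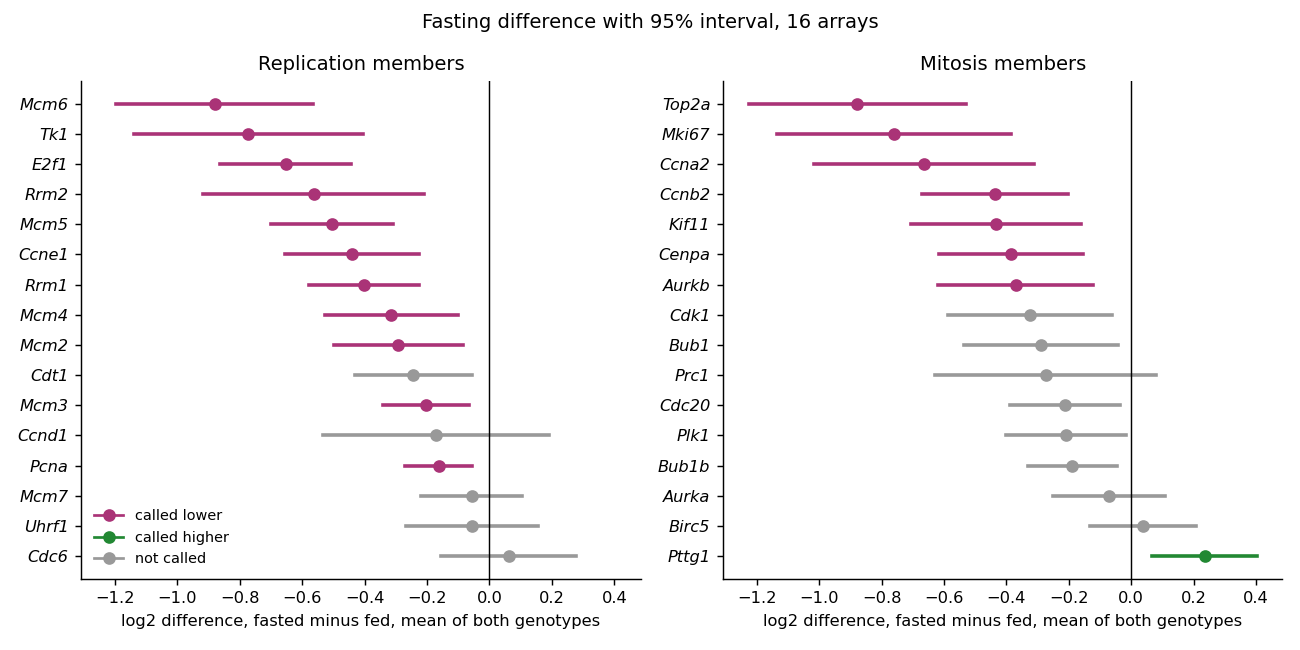
Fasting differences of the 16 replication genes (left) and 16 mitosis genes (right), averaged over genotypes, as log2 fasted minus fed with 95% intervals from the fit to 16 arrays. Purple marks a call for lower, green for higher and grey no call; 18 genes lie to the left of 0 with a call, and Pttg1 alone lies to the right with one.

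The MCM genes encode the 6 subunits of the replicative helicase, which is loaded as a double ring on origins. Mcm6 had, with Top2a, the largest averaged difference of the 32. It read 5.91, 5.65, 5.65 and 5.85 on the fed wild type arrays and 4.92, 5.22, 5.22 and 4.57 on the fasted ones, then 5.79, 5.46, 6.17 and 6.55 in fed and 4.56, 5.39, 4.94 and 5.15 in fasted knockout. No fasted array reached its fed group in either genotype, and the highest value of all came from fed KO 4. The averaged log2 difference was -0.88 (SE 0.15, limma adjusted p = 0.000487), and -0.79 without fed KO 4 (adjusted p = 0.000783).

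Mcm5 behaved alike at a smaller size. Its levels were 5.29, 5.46, 5.45 and 5.57 in fed and 5.11, 4.90, 4.93 and 5.13 in fasted wild type, and 5.38, 5.33, 5.44 and 5.98 in fed and 4.85, 4.81, 5.24 and 4.90 in fasted knockout. The groups again did not overlap in either genotype. Averaged over genotypes, the difference was -0.50 (SE 0.09, limma adjusted p = 0.00092). Mcm4 (-0.31, adjusted p = 0.0386), Mcm2 (-0.29, adjusted p = 0.0463) and Mcm3 (-0.20, adjusted p = 0.0368) also fell, but each lost its call in 14 to 18 of the 28 or 29 other settings. Mcm7, the remaining subunit, gave -0.06 (95% interval -0.22 to 0.10, adjusted p = 0.667), at 6.85 to 7.46 on all 16 arrays.

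Cdc6 and Cdt1 bring the helicase to the origin recognition complex. Neither was called. Cdt1 averaged -0.24 (interval -0.43 to -0.06, adjusted p = 0.0667) and Cdc6 0.06 (interval -0.15 to 0.28, adjusted p = 0.738). Cdc6 was dim, between 3.61 and 4.57 on every array.

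Promoters of the replication genes are shown because E2F is the known activator of this wave. Windows came from RefSeq (GRCm38.p6), 250 bases before to 50 after each start, and 28 of the 32 genes had one. The E2F letters TTTGGCGC, TTTCGCGC, TTTCCCGC and TTTGCCGC were searched on both strands, and matches are in capitals in Mcm6 (chr1:128359656-128359955, minus strand), Mcm5 (chr8:75109259-75109558, plus strand) and Mcm3 (chr1:20820263-20820562, minus strand), each read along the gene's strand.
Mcm6: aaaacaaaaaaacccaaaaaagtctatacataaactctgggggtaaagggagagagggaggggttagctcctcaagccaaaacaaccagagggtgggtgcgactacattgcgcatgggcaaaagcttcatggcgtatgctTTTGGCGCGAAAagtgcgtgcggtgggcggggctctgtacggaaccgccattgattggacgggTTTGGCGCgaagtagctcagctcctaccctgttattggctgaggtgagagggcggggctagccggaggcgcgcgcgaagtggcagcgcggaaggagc
Mcm5: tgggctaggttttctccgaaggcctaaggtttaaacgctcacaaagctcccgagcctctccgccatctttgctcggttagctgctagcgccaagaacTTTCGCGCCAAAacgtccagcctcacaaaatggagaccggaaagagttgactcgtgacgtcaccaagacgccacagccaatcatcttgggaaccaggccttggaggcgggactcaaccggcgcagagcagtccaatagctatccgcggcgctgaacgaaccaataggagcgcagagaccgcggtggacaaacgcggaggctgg
Mcm3: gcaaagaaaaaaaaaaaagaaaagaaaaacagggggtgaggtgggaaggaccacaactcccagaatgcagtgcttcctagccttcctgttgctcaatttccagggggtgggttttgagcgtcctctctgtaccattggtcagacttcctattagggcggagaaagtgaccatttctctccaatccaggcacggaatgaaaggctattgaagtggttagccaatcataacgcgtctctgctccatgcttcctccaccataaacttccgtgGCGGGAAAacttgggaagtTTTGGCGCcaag
Such letters stood in 7 of 16 replication windows (43.8%) and 1 of 15 mitosis windows (6.7%), against 2.3% of the 32851 windows in the table. Of the 7 replication genes with one (Cdc6, Cdt1, Mcm3, Mcm5, Mcm6, Mcm7 and Uhrf1), 3 fell on average. All 7 without one fell. Among the latter is E2f1, whose window reads as coding bases of the gene and does not show its promoter. These counts therefore do not compare promoters alone. A match is a description of letters, and a window without one says nothing about the factor.

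Genes that supply deoxynucleotides fell together. Rrm1 and Rrm2 encode the large and small subunits of ribonucleotide reductase, and Tk1 encodes the cytosolic thymidine kinase. Rrm1 read 7.26, 7.16, 7.02 and 7.41 in fed and 6.99, 6.56, 6.86 and 6.64 in fasted wild type, and 7.40, 7.14, 7.52 and 7.48 in fed and 6.91, 7.25, 7.05 and 6.91 in fasted knockout. The wild type groups did not overlap; in knockout the highest fasted array lay above the lowest fed one. On average it fell by 0.40 (SE 0.08, limma adjusted p = 0.00251), or 1.32-fold.

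Tk1 read 7.48, 7.57, 8.0 and 7.62 in fed and 7.0, 7.08, 6.85 and 6.34 in fasted wild type. In knockout it read 7.96, 7.40, 7.61 and 7.30 fed and 6.22, 7.70, 6.93 and 6.63 fasted. The knockout groups overlapped through fasted KO 2, and the wild type groups did not. The averaged difference was -0.77 (SE 0.17, limma adjusted p = 0.00457), 1.71-fold. A second probe set named Tk1 gave -0.79 on average (adjusted p = 0.00604), but the 2 differed in which genotype was called: the first gave -0.85 in wild type (adjusted p = 0.0441) and -0.70 in knockout (adjusted p = 0.0902), the second -0.70 (adjusted p = 0.119) and -0.87 (adjusted p = 0.0439). The annotation gives both to Tk1 alone, and whether either also reads a processed copy of the gene was not tested. Rrm2 averaged -0.56 (SE 0.17, adjusted p = 0.0262), a call that was lost in 8 of 29 settings.

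Pcna encodes the sliding clamp that holds the polymerases on DNA. In wild type its fall was small and its spread smaller, at 9.34 to 9.38 in fed and 9.14 to 9.23 in fasted livers. The knockout groups spread more and overlapped, at 9.27 to 9.56 in fed and 9.17 to 9.32 in fasted livers. Averaging gave -0.16 (SE 0.05, limma adjusted p = 0.0328), and -0.17 (adjusted p = 0.0272) on its second probe set, with the same limit on what each reads. The first call was lost in 12 of 29 settings, centring of each array on its median among them. Uhrf1, which brings the maintenance DNA methyltransferase to newly copied DNA, averaged -0.06 (interval -0.27 to 0.15, adjusted p = 0.756) at 3.46 to 4.32.

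Among the regulators of S phase entry, E2f1 had the smallest adjusted p of the 32 genes. This transcription factor read 6.25, 5.57, 5.91 and 5.59 in fed and 5.25, 5.38, 5.09 and 5.14 in fasted wild type, and 6.08, 5.76, 6.15 and 5.67 in fed and 5.31, 5.21, 5.30 and 5.07 in fasted knockout. Every fasted array lay below every fed array of both genotypes. It fell by 0.65 on average (SE 0.10, limma adjusted p = 0.000192), by 0.61 in wild type (adjusted p = 0.0121) and by 0.69 in knockout (adjusted p = 0.0043), and these 3 calls held in each setting.

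Ccne1 encodes cyclin E1, which with Cdk2 starts S phase. It read 5.15, 5.50, 5.80 and 5.81 in fed and 4.85, 4.97, 4.76 and 5.11 in fasted wild type, and 5.10, 4.93, 5.35 and 5.27 in fed and 4.97, 5.18, 4.69 and 4.87 in fasted knockout. The wild type groups did not overlap and the knockout groups did. Its difference was -0.65 in wild type (limma adjusted p = 0.0104), -0.24 in knockout (adjusted p = 0.368) and -0.44 on average (SE 0.10, adjusted p = 0.00551). The difference between the genotypes' responses was 0.41 (interval -0.02 to 0.84, adjusted p = 0.948).

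Ccnd1 encodes cyclin D1, the mitogen-driven cyclin of early G1. It read 8.16, 8.98, 8.43 and 9.16 in fed and 8.55, 7.94, 8.57 and 7.74 in fasted wild type, and 8.18, 8.50, 8.92 and 8.32 in fed and 8.91, 8.27, 8.37 and 8.92 in fasted knockout. The groups overlapped in both genotypes. The difference was -0.48 in wild type (limma adjusted p = 0.266) and 0.14 in knockout (adjusted p = 0.799), and no call was made for either or for their average (-0.17, interval -0.53 to 0.19, adjusted p = 0.549).

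**Figure D2:**
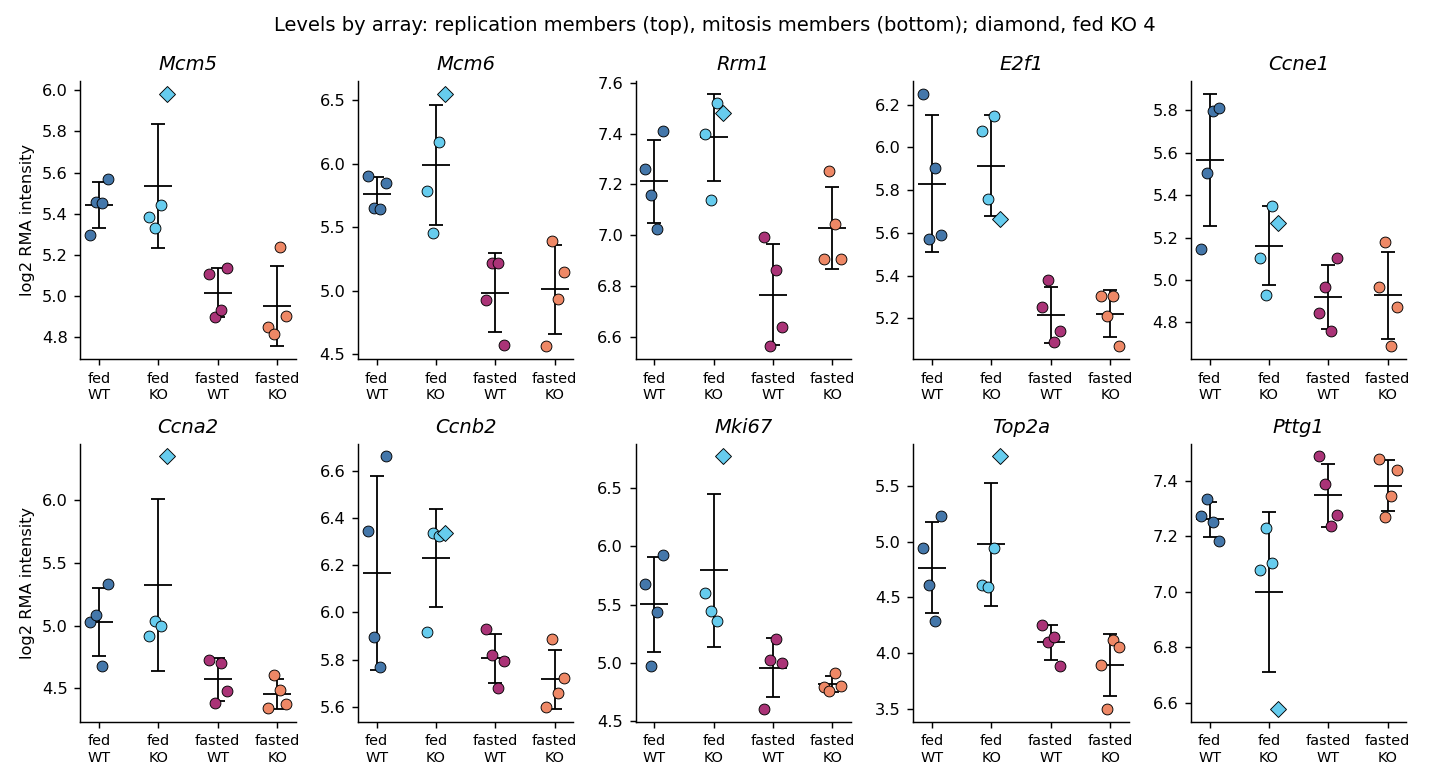
Log2 RMA intensity of 5 replication genes (top) and 5 mitosis genes (bottom) on each of the 16 arrays; points are arrays, the bar and whiskers are the group mean ± SD (n = 4), and the diamond is fed KO 4. Each panel has its own vertical axis, which does not start at 0. Fasted group means lie lower in all panels but that of Pttg1, and fed KO 4 carries the highest point for Mcm5, Mcm6, Ccna2, Mki67 and Top2a.

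Of the mitosis genes, Top2a, Mki67 and Ccna2 had the largest falls. Top2a encodes topoisomerase II alpha, which untangles sister chromatids. It read 4.94, 4.61, 4.28 and 5.23 in fed and 4.26, 4.10, 4.14 and 3.88 in fasted wild type, and 4.61, 4.59, 4.94 and 5.76 in fed and 3.90, 3.50, 4.12 and 4.05 in fasted knockout. Fed and fasted arrays did not overlap in either genotype, by a narrow margin in wild type (4.26 against 4.28). The averaged difference was -0.88 (SE 0.16, limma adjusted p = 0.00116) and -0.75 without fed KO 4 (adjusted p = 0.000858). Its other 2 probe sets were dimmer, with means of 3.01 and 2.59, and gave -0.15 and -0.06 with no call. The mean of the 3 probe sets gave -0.36 (adjusted p = 0.0042).

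Mki67 encodes the Ki-67 protein, which coats mitotic chromosomes and marks cycling cells. It read 5.68, 4.97, 5.44 and 5.92 in fed and 4.60, 5.03, 5.21 and 5.0 in fasted wild type. In knockout it read 5.60, 5.44, 5.36 and 6.77 fed and 4.80, 4.76, 4.91 and 4.80 fasted. The wild type groups overlapped and the knockout groups did not. Mki67 averaged -0.76 (SE 0.18, limma adjusted p = 0.00612), and -0.60 without fed KO 4 (adjusted p = 0.00237).

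Ccna2 encodes cyclin A2, needed in S phase and at entry into mitosis. It read 5.03, 5.09, 4.67 and 5.33 in fed and 4.72, 4.38, 4.70 and 4.48 in fasted wild type, and 4.92, 5.04, 5.0 and 6.35 in fed and 4.35, 4.61, 4.49 and 4.37 in fasted knockout. Again the knockout groups stood apart and the wild type groups overlapped, through fed WT 3. Its average was -0.66 (SE 0.17, limma adjusted p = 0.00951), and -0.49 without fed KO 4 (adjusted p = 0.000982).

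Ccnb2 encodes a cyclin that drives mitosis with Cdk1. It read 6.34, 5.89, 5.77 and 6.66 in fed and 5.93, 5.82, 5.68 and 5.79 in fasted wild type, and 5.92, 6.34, 6.33 and 6.34 in fed and 5.60, 5.89, 5.66 and 5.72 in fasted knockout. The wild type groups overlapped, and the knockout groups were narrowly apart (5.89 against 5.92). The averaged difference was -0.44 (SE 0.11, limma adjusted p = 0.00999), 1.35-fold. Cdk1 itself averaged -0.32 (interval -0.59 to -0.06, adjusted p = 0.0834) and was not called.

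Cenpa encodes the histone H3 variant that marks centromeres. It read 6.89, 6.58, 6.66 and 7.54 in fed and 6.42, 6.56, 6.37 and 6.48 in fasted wild type, and 6.90, 6.93, 6.60 and 6.65 in fed and 6.36, 6.55, 6.40 and 6.52 in fasted knockout. Both pairs of groups were narrowly apart (6.56 against 6.58 in wild type, 6.55 against 6.60 in knockout), with fed WT 4 well above the rest. The averaged difference was -0.38 (SE 0.11, limma adjusted p = 0.0201), 1.31-fold. As for Ccnb2, fed WT 4 was the highest of the 16 arrays.

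Of the remaining mitosis genes 2 fell, with calls that depended on the setting. Kif11, the motor that parts the spindle poles, fell by 0.43 (limma adjusted p = 0.0268), and Aurkb, the kinase of the chromosomal passenger complex, fell by 0.37 (adjusted p = 0.0368). Those calls were lost in 4 and 12 of 28 settings. Without fed KO 4 Kif11 gave -0.31 (adjusted p = 0.0105). A second Kif11 probe set, with a mean of 3.05, gave -0.19 with no call (limma adjusted p = 0.248). Bub1b (-0.19, adjusted p = 0.0626), Cdc20 (-0.21, adjusted p = 0.0923), Bub1 (-0.29, adjusted p = 0.102), Plk1 (-0.21, adjusted p = 0.127) and Prc1 (-0.27, adjusted p = 0.295) were negative with no call. The second probe set of Prc1, with a mean of 3.11, gave -0.0034 (limma adjusted p = 0.983). Bub1 and Bub1b act in the spindle checkpoint, Cdc20 activates the ligase that starts anaphase, Plk1 is a mitotic kinase and Prc1 bundles the spindle midzone. Aurka, the spindle pole kinase, averaged -0.07 (interval -0.25 to 0.11) and Birc5, survivin, averaged 0.04 (interval -0.13 to 0.21). Both lay between 4.27 and 5.20 on every array.

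Pttg1 went the other way. It encodes securin, which holds separase inactive until anaphase. It read 7.27, 7.34, 7.25 and 7.18 in fed and 7.49, 7.39, 7.24 and 7.28 in fasted wild type, and 7.08, 7.23, 7.11 and 6.58 in fed and 7.48, 7.27, 7.35 and 7.44 in fasted knockout. Only in knockout were all fasted arrays above all fed ones, and fed KO 4 was the lowest of the 16. The averaged rise was 0.24 (SE 0.08, limma adjusted p = 0.0491), a call lost in 18 of 29 settings. Without fed KO 4 it was 0.16 (adjusted p = 0.0521).

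Windows of 3 mitosis genes are shown for the CHR letters TTTGAA, searched on both strands and printed in capitals: Top2a (chr11:99024140-99024439), Mki67 (chr7:135716330-135716629) and Ccnb2 (chr9:70421505-70421804), all on the minus strand of GRCm38.p6 and read along the gene.
Top2a: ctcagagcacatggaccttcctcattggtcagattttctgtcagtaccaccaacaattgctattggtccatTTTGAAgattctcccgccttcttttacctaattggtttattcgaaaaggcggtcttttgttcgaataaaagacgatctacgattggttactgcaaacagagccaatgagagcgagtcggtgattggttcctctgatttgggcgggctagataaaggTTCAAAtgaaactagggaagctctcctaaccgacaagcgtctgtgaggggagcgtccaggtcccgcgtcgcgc
Mki67: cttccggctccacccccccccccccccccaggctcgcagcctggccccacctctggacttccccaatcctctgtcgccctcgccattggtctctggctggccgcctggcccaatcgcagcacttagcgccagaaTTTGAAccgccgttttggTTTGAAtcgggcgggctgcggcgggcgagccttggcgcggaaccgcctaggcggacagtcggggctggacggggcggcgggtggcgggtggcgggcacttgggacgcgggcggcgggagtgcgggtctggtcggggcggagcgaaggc
Ccnb2: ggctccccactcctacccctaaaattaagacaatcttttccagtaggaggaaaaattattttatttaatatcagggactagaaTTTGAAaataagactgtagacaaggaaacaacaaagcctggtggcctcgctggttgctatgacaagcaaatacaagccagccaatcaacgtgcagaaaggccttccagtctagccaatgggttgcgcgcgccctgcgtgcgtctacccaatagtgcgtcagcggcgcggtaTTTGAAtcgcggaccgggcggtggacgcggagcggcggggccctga
The letters TTTGAA stood in 12 of 15 mitosis windows (80.0%), in 1 of 16 replication windows (6.2%) and in 17.9% of all windows. CCAAT, on either strand, stood in 86.7% of mitosis windows, 68.8% of replication windows and 37.4% of all. In 1 of the 31 member windows matches to different motifs shared a base. Of the 11 mitosis genes with TTTGAA, 5 fell on average (Top2a, Mki67, Ccnb2, Cenpa and Kif11) and 6 were not called. The 3 without it, Bub1, Birc5 and Pttg1, were not called lower. Ccna2 and Aurkb, which fell, had no window. Here too a window without a match says nothing about the factor.

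Taken one genotype at a time, with 4 against 4 arrays, fewer calls were made. In wild type 5 of 32 genes fell, against 4.27% of all genes, and 0 rose, against 3.34% (7.61% either way). Those that fell were Mcm6, Rrm1, Tk1, E2f1 and Ccne1, and each acts in replication. None of the 16 mitosis genes was called by limma there, and 6 had an unadjusted p under 0.05, against 3997 of all 18820 genes. That count of 0 became 4 without fed KO 4, 2 without the 3 arrays whose file name ends in 2, and 1 without fed WT 2 or fed WT 3. In knockout 9 fell, against 4.89% of all genes. These were Mcm5, Mcm6, Rrm2 and E2f1 of replication, and Ccna2, Ccnb2, Cdc20, Mki67 and Top2a of mitosis. Pttg1 rose there by 0.38 (limma adjusted p = 0.0398), against 4.53% of all genes called higher (9.42% either way); without fed KO 4 it gave 0.24 (adjusted p = 0.0833) and without fasted KO 1 0.35 (adjusted p = 0.114). Only Mcm6 and E2f1 were called lower in both genotypes, against 2.52% of all genes.

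That split between the genotypes was not a called difference. For the difference of the fasting responses limma called 0 of the 32 genes (smallest adjusted p 0.948). The median difference of the mitosis genes was -0.29 in wild type and -0.33 in knockout, and that of the replication genes -0.35 and -0.31, with 0.01 and 0.02 over all genes. The difference was negative in both genotypes for 26 of the 32 genes, 12 of replication and 14 of mitosis. In each genotype alone 28 of the 32 were negative, against 8897 of all 18820 genes in wild type and 8477 in knockout. Fed and fasted arrays did not overlap, with fasted lower, for 8 replication and 3 mitosis genes in wild type (6.39% of all genes) and for 5 and 7 in knockout (8.07% of all genes). Fasted arrays were all higher for no member in wild type (6.02% of all genes) and for Pttg1 in knockout (8.89%). In each genotype all fasted arrays lay below all fed ones for Mcm5, Mcm6, E2f1, Top2a and Cenpa (3.21% of all genes).

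The counts per genotype leaned on single arrays. In wild type the 5 became 2 without fasted WT 4, fed WT 1 or fed WT 4, 3 without fasted WT 2, and 10 without fed KO 4, which enters that comparison only through the shared spread. In knockout the 9 became 4 without fasted KO 1. E2f1 and Ccne1 in wild type, and E2f1 and Top2a in knockout, held their calls in each setting. Without fasted WT 4 the wild type calls of Mcm6 (-0.64, limma adjusted p = 0.111), Rrm1 (-0.41, adjusted p = 0.0863) and Tk1 (-0.69, adjusted p = 0.148) were lost, and that of Tk1 was lost in 17 of 30 settings in all. The knockout calls of Rrm2, Ccnb2 and Cdc20 were lost in 20 of 30, 18 of 30 and 19 of 29 settings; without fed KO 4 Rrm2 gave -0.83 (adjusted p = 0.0663) and Ccnb2 -0.48 (adjusted p = 0.111), and Ccnb2 was also lost without fasted WT 4 (-0.51, adjusted p = 0.0542). Mki67 lost its knockout call only without fasted KO 1 (-0.97, limma adjusted p = 0.0522), and Mcm5 and Mcm6 lost theirs only without the 3 arrays whose file name ends in 2, fasted KO 1, fed WT 2 and fed KO 4 (-0.40, adjusted p = 0.0658, and -0.65, adjusted p = 0.078). In knockout the size of several differences also rested on fed KO 4: without it Ccna2 went from -0.87 to -0.53 (adjusted p = 0.0182) and Mki67 from -0.98 to -0.65 (adjusted p = 0.0314), both still called.

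Some averaged calls also rested on fed KO 4 or fasted WT 4. Without fed KO 4 the lost falls were Mcm2 (-0.23, limma adjusted p = 0.0864), Mcm4 (-0.27, adjusted p = 0.0771) and Pcna (-0.16, adjusted p = 0.0518). Without fasted WT 4 they were Mcm2 (-0.28, adjusted p = 0.0763), Mcm4 (-0.27, adjusted p = 0.0813), Mcm3 (-0.20, adjusted p = 0.0616), Pcna (-0.16, adjusted p = 0.0584), Aurkb (-0.32, adjusted p = 0.0779) and Kif11 (-0.40, adjusted p = 0.0544). The rise of Pttg1 was lost there too (0.25, adjusted p = 0.058). The averaged count of 18 was 15 without fed KO 4 and 12 without fasted WT 4.

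**Figure D3:**
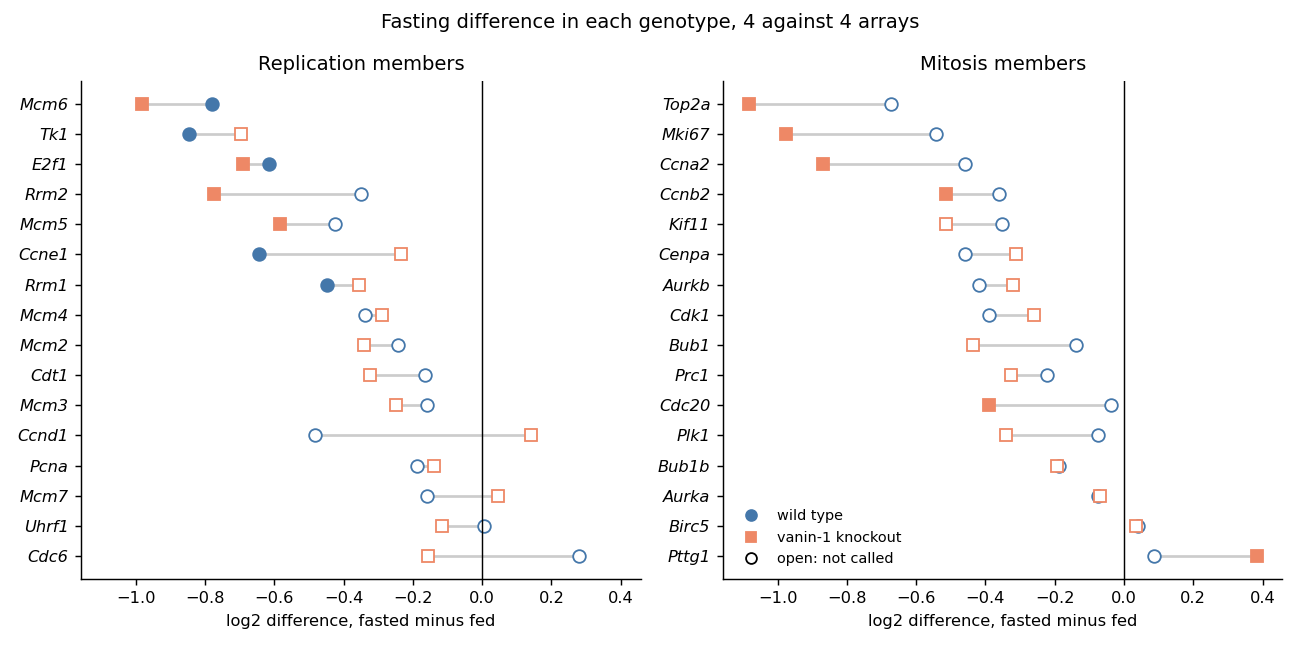
Fasting differences (log2, fasted minus fed) of each gene in wild type (circles) and knockout (squares); filled marks were called at a limma adjusted p below 0.05 and open marks were not. Grey lines join the genotypes; 26 of 32 genes lie left of 0 in both, and Ccnd1, Cdc6, Mcm7 and Uhrf1 have opposite signs.

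No member was called between genotypes. In fed livers limma called 0 of 32 genes (0.00531% of all genes), and the smallest adjusted p was 0.855. An unadjusted limma p under 0.05 was found for 2 of the 32 and for 1084 of all 18820 genes. Those 2 were Ccne1 (-0.40, interval -0.71 to -0.10) and Pttg1 (-0.26, interval -0.50 to -0.03). In fasted livers 0 were called by limma (0.0159% of all genes, 0.0106% higher), and the smallest adjusted p was 0.885. The unadjusted p was under 0.05 for 2 members and for 1033 of all 18820 genes. These 2 were Cdc6 (-0.33, interval -0.63 to -0.02) and Rrm1 (0.26, interval 0.01 to 0.51). No gene had all 4 knockout arrays on 1 side of all 4 wild type arrays, in fed livers (1.84% of all genes lower, 1.28% higher) or in fasted ones (1.5% lower, 1.65% higher).

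These comparisons did not show that the genotypes were alike. The 95% intervals over the 32 genes ran from -0.72 to 0.92 in fed and from -0.70 to 0.93 in fasted livers. For the difference of the fasting responses limma called 0 of 32 genes and 0% of all genes. The smallest adjusted p was 0.948, and intervals ran from -1.18 to 1.35. Against 924 of all 18820 genes, 1 of the 32 had an unadjusted p under 0.05. That gene was Cdc6, at 0.28 in wild type and -0.16 in knockout (difference -0.44, interval -0.87 to -0.01).

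The fed knockout group had the highest mean of the 4 for 11 of 16 replication and 12 of 16 mitosis genes, and fed KO 4 weighed on this. That array was the highest of all 16 for 10 mitosis genes (Ccna2, Cdk1, Mki67, Top2a, Bub1, Bub1b, Aurkb, Plk1, Kif11 and Prc1) and 5 replication genes (Mcm2, Mcm4, Mcm5, Mcm6 and Uhrf1). Its mean over the mitosis genes was 5.49; the mean was 4.95 to 5.05 on fed KO 1 to 3, 4.88 to 5.25 on fed wild type, 4.69 to 4.84 on fasted wild type and 4.67 to 4.78 on fasted knockout arrays. For replication genes it was 6.40, against 6.11 to 6.36, 6.15 to 6.21, 5.79 to 5.92 and 5.86 to 5.97. Fed and fasted arrays thus did not overlap in the mean of either set, with or without fed KO 4. Without it, the median fed difference between genotypes over the mitosis genes went from 0.10 to -0.05. Its acute phase and neutrophil means were high as well. The next highest acute phase means were on fed KO 1 (10.83) and fed WT 2 (10.66). Mitosis means were 4.95 on fed KO 1 (4.98 to 5.49 on the rest of its group) and 4.88 on fed WT 2 (4.90 to 5.25 on the rest). The part of the acute phase and neutrophil values in the result was not tested.

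**Figure D4:**
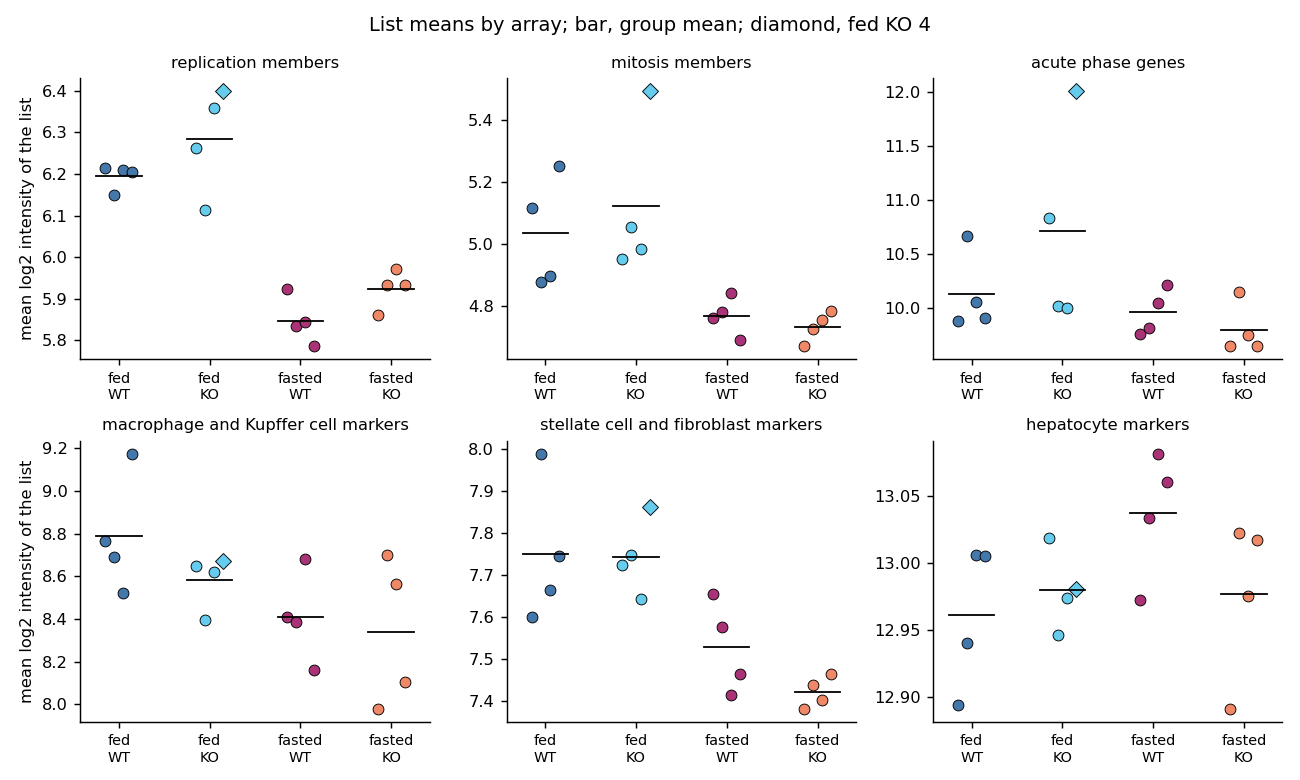
Mean log2 intensity over each gene list on each of the 16 arrays, with the group mean as a bar and fed KO 4 as a diamond; vertical axes differ between panels and do not start at 0. Replication means of fed arrays start at 6.11 and those of fasted arrays end at 5.97; fed KO 4 is the highest array in the replication, mitosis and acute phase panels.

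Other genes of the same processes, from lists that hold none of the 37, were counted in the same fit. These lists too were chosen with earlier results of these data known. Of 43 other replication genes, 16 fell and 1 rose on average, against 9.88% and 8.4% of all genes, 10 fell in wild type, against 4.27%, and 6 in knockout, against 4.89%. The 3 with the smallest p were Rfc5, a clamp loader subunit (-0.69, limma adjusted p = 8.71e-06), Dbf4, which activates the Cdc7 kinase at origins (-0.96, adjusted p = 2.37e-05), and Pola1, the catalytic subunit of the polymerase that primes synthesis (-0.72, adjusted p = 7.28e-05). The 1 that rose was Orc3, of the origin recognition complex (0.24, adjusted p = 0.00228). Of 54 other mitosis genes, 12 fell and 0 rose on average, 2 fell in wild type and 6 in knockout; the wild type count, 2 of 54, was no larger a share than the 4.27% of all genes. They were led by Mad2l1 of the spindle checkpoint (-0.64, adjusted p = 0.000106), Trip13, which remodels it (-0.43, adjusted p = 0.00125), and the condensin subunit Smc2 (-0.40, adjusted p = 0.00276).

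Regulators of the cycle were called in both directions, the rises at a share near that of all genes. Of 39 cyclin-dependent kinase inhibitors, cyclins and other regulators, 4 rose and 7 fell on average, against 8.4% and 9.88% of all genes. The rises were led by Cdkn1a, the kinase inhibitor p21 (3.20, limma adjusted p = 1.1e-05), Ccng2, a cyclin of arrested cells (0.70, adjusted p = 5.72e-05), and Ccnd3 (0.31, adjusted p = 0.00228). Lin9, a subunit of the complexes that bind CHR sites (-0.76, adjusted p = 0.000162), Tfdp2, an E2F partner (-0.40, adjusted p = 0.000216), and Ccnd2 (-0.32, adjusted p = 0.00428) led the falls.

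Markers of some non-parenchymal cells also moved with fasting, where 9.88% of all genes were called lower on average and 8.4% higher. Of 12 macrophage and Kupffer cell markers, 5 fell on average and 0 rose, led by Folr2 (-0.69, limma adjusted p = 0.000622), Adgre1 (-0.65, adjusted p = 0.0156) and Csf1r (-0.38, adjusted p = 0.0255). Their mean was 8.52 to 9.17 in fed wild type, 8.40 to 8.67 in fed knockout, 8.16 to 8.68 in fasted wild type and 7.98 to 8.70 in fasted knockout, so the ranges overlapped. Of 10 stellate cell and fibroblast markers, 6 fell, led by Col3a1 (-0.67, adjusted p = 4.28e-05), Lrat (-0.52, adjusted p = 0.00176) and Col1a2 (-0.38, adjusted p = 0.00725), with list means of 7.60 to 7.99, 7.64 to 7.86, 7.41 to 7.65 and 7.38 to 7.46 in the same order. The part of these markers in the fall of the replication and mitosis genes was not tested.

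Calls in the other lists are from the averaged comparison, where 18.3% of all genes were called (8.4% higher and 9.88% lower). Tat rose and Ttr fell among 8 hepatocyte markers. None of 9 sinusoidal endothelial markers, 5 cholangiocyte markers or 7 pancreas acinar markers was called by limma. In that order 1, 1 and 0 of them had an unadjusted p under 0.05, against 5727 of all 18820 genes. Cd4 fell among 11 lymphocyte markers, Mpo rose among 9 neutrophil markers, Alas2 fell and Tfrc and Ermap rose among 7 erythroid markers, and Steap4, Socs3 and Orm1 fell among 15 acute phase genes.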

How the data were processed

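Total liver RNA was hybridised to whole-transcript arrays, 16 in all and 4 in each group. Values were deposited by the authors as log2 intensities made with RMA, per the submitters' processing notes; its version and settings are not stated there, and RMA's default sets all arrays to a common distribution. Probe sets with exactly 1 gene symbol were kept (21218 of 35556; 1881 had several symbols and 12457 none). Of these, 21185 matched RefSeq by Entrez ID. The probe set with the highest mean over all arrays stood for each gene, leaving 18820 genes with no filter on level. A group mean was fitted to all arrays in limma 3.58.1 (R 4.3.3; 12 residual and 4.66 prior degrees of freedom), with two-sided moderated tests, Benjamini-Hochberg adjustment over all genes of a comparison and calls below 0.05. The procedure was tested on simulated data. The number of arrays limits the precision.

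All members could be named. From each other list the text names up to 3 called genes in each direction, those with the smallest p in the averaged fasting comparison. The members and lists were chosen with earlier results of these data known. Alternatives covered normalization between arrays, filters on dim genes, the choice of probe set, variance priors, array weights, blocks for title number and file name column, the groups fitted, the threshold, and arrays left out. Same-numbered arrays did not deviate together (correlations of -0.22 to 0.209 over 24 pairs, 4 above 0.1), so title numbers were not taken as pairs.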

Additional observations from a re-analysis of the deposited data

Results flagged for a closer look

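In 10 of 128 sets of 4 arrays, 1 per gene and group, a single array lay farther from the others than Dixon's 95% limit; chance flags about 1 in 20. Fed KO 4 was the high array for Ccna2 (6.35, others 4.92 to 5.04), Cdk1 (6.19, others 5.36 to 5.42), Mki67 (6.77, others 5.36 to 5.60) and Kif11 (5.88, others 4.81 to 4.93), 4 of the 10. Fed KO 1 was the low array for Cdt1 (5.61, others 5.91 to 5.96) and Ccnb2 (5.92, others 6.33 to 6.34). Fed WT 2 was low for Cdc6 (3.61, others 4.0 to 4.05) and Prc1 (3.16, others 3.61 to 3.67). In fasted wild type, array 1 was high for Mcm2 (5.84, others 5.65 to 5.67) and array 4 for Uhrf1 (3.90, others 3.48 to 3.54).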

How the results depend on the processing

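No called member changed the sign of its fasting difference under an alternative. Median differences that were near 0 did change sign: over settings the mitosis median ran from -0.15 to 0.16 between fed genotypes, from -0.07 to 0.00049 between fasted genotypes and from -0.22 to 0.15 for the difference of responses, and the replication median from -0.13 to 0.08 for the last. The 5 members lower in wild type became 2 among genes above the 50th percentile of level, which keeps 11 members, 3 without fasted WT 4 and fed KO 4, 0 at an adjusted p below 0.01 and 8 below 0.1. The 9 lower in knockout became 3 above the 50th percentile, 3 without the 3 arrays whose name ends in 2, and 4 below 0.01. The 18 lower on average became 8 above the 50th percentile and 10 below 0.01. With each array left out in turn the counts ranged from 2 to 10 in wild type, 4 to 8 in knockout and 12 to 18 on average. Genotype comparisons and the difference of responses gave 0 members in each setting. A replicate block on the title number, though numbers did not pair arrays, gave 5, 6 and 15 members lower. Centring each array on its median gave 5, 7 and 13, and moved the split of all genes from 629 higher and 803 lower to 1014 and 542 in wild type, from 852 and 920 to 972 and 800 in knockout, and from 1580 and 1860 to 2426 and 1397 on average; quantile normalization gave 708 and 706 in wild type and 1713 and 1690 on average. Median fasting differences stayed negative in each setting, between -0.41 and -0.18 for mitosis and -0.39 and -0.23 for replication genes, and within each file name column (-0.20 to -0.48). Signal over background limits the dim genes.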
